A study of Mus musculus with 8 samples.

Results

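The genes described here are 45 mouse genes of DNA replication and S phase, of 21883 protein-coding genes in the annotation used. They were chosen by symbol for their roles in copying DNA, and each is described by the open chromatin peaks at its ends and around it. A gene-end peak is a peak with at least 1 base within 1000 bp of either end of the annotated gene. A locus peak is a peak that overlaps the gene or 10 kb on either side. Before a cell copies its DNA, the origin recognition complex, Cdc6 and Cdt1 load the ring-shaped Mcm helicase onto origins, and Cdc45 and the GINS complex then switch it on. A clamp loader places the ring of Pcna on the DNA, and polymerases alpha, delta and epsilon copy the strands while other enzymes supply nucleotides and rebuild chromatin. Many of these genes are targets of E2F transcription factors, which the retinoblastoma (Rb) proteins hold in check outside S phase, and adult liver cells rarely divide.

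The assay was ATAC-seq, which finds accessible chromatin as DNA that a transposase can cut, and it was applied to primary liver cells of mice of an Rb family triple knockout model of hepatocellular carcinoma. The cells came from digested liver or from macroscopic lesions, and cells positive for YFP, a mark of Cre recombination of the floxed alleles, were sorted by Thy1 and EpCAM at their surface. By their labels the 8 samples form 5 groups, which are EpCAM-high CK19 (2 samples), EpCAM-high Sox9 (1 sample), Thy1+ CK19 (2 samples), Thy1+ Sox9 (1 sample) and Epcam- (2 samples). All groups share the model and the YFP sort, none was treated, and the Cre driver, the age of the mice, any pooling of animals and the meaning of CK19 and Sox9 in the sample names are not stated in the labels. The data are 5 peak lists: EpCAM-high cells in a CK19 list and a Sox9 list, Prog-like cells likewise, and Tumor cells in a Sox9 list alone. Values for the 5 lists are given in that order throughout, CK19 before Sox9. Names of sample groups match the EpCAM-high lists, whereas the Prog-like and Tumor lists match no group name and are called by their own names.

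The lists held 56932, 59454, 71375, 67855 and 39644 peaks. With 1 list per condition there was no replicate check, and no difference between lists could be tested. Of 10 biliary marker genes, 10, 10, 5, 2 and 5 had a gene-end peak. Hepatocyte markers had one at 5, 7, 1, 1 and 9 of 10 genes, and macrophage markers at 0, 1, 8, 8 and 0 of 8. For endothelial markers the counts were 1, 0, 5, 4 and 0 of 7, for leukocyte and T cell markers 2, 1, 1, 1 and 0 of 7, and for mesenchymal and stellate markers 2, 3, 3, 2 and 2 of 8. Over all protein-coding genes the share with a gene-end peak was 57.8%, 57.7%, 57.4%, 54.4% and 51.1%. Counts of 5 of 10 and 4 of 7 genes lie near these shares. By the counts far from these shares, the lists differ in the cell types whose marker genes are open. In bulk samples fewer cells of a type and less signal per cell cannot be told apart.

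Promoter sequences of 37 of the 45 genes were matched by symbol in the RefSeq promoter table of build GRCm38.p6, which is mm10. Each window holds 300 bases, from 250 before the transcript start to 50 after it, on the strand of the gene. No window was matched for Mcm4, Gins1, Gins2, Gins4, Rfc2, Prim2, Pole and Ccne2. Of the windows below, those of Rfc3 and Mcm3 lie under 2 of the 5 peaks with the highest mean rank among the 38 genes that had one at a gene end in all 5 lists. Those of Orc1 and Lig1 lie inside the annotated gene. A search at gene ends misses the Orc1 peak in every list and the Lig1 peak in Prog-like CK19 and Tumor alone. The windows of Pola2, Prim1 and Tk1 were without a peak in at least 1 list. Capitals mark matches to the E2F motif, searched on both strands as TTTCCCGC, TTTCGCGC, TTTGCCGC and TTTGGCGC. A match is a run of letters and not a bound site. The Rfc3 window (chr5:151651159-151651458, minus strand) and the Mcm3 window (chr1:20820263-20820562, minus strand) each held 2 matches. The Orc1 window (chr4:108579204-108579503, plus strand) and the Lig1 window (chr7:13278576-13278875, plus strand) each held 1. The Pola2 window (chr19:5964157-5964456, minus strand), the Prim1 window (chr10:128014965-128015264, plus strand) and the Tk1 window (chr11:117825965-117826264, minus strand) held none. These windows do not stand for all members. Of the others among the 5 highest in mean rank, Gins3 held 1 match, Rpa3 held none and Gins4 had no window. Among the 5 lowest in mean rank, a window of Mcm7 held 2 matches, while Mcm2, Rpa2, Fen1 and Chaf1a held none.
Rfc3: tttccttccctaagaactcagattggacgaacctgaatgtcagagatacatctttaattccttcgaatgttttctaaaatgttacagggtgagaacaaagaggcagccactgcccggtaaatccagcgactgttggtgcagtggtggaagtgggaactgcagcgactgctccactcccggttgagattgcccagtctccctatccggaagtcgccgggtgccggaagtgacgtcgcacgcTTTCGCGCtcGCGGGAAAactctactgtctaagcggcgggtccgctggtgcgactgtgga
Mcm3: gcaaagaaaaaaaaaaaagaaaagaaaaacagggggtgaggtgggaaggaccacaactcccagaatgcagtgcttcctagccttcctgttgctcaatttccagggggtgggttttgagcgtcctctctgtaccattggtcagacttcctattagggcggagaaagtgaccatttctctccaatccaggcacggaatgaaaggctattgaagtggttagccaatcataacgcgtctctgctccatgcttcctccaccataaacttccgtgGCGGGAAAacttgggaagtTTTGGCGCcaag
Orc1: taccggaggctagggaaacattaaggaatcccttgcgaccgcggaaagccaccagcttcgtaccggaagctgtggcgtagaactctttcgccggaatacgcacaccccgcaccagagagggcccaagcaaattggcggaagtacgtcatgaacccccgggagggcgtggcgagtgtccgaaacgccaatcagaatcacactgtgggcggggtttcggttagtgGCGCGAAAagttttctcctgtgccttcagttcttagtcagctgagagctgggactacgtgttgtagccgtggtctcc
Lig1: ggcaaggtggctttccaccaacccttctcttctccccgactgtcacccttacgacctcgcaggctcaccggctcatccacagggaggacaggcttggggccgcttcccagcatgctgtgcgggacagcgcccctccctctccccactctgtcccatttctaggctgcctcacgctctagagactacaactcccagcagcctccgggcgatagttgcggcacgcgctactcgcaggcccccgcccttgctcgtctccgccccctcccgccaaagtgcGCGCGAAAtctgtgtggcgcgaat
Pola2: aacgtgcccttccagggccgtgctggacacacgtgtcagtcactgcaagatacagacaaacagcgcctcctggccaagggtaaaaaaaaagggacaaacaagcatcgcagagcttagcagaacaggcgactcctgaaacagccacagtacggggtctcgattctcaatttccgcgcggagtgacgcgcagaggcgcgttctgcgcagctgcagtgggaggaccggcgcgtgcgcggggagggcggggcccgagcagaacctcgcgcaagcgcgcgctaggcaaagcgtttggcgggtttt
Prim1: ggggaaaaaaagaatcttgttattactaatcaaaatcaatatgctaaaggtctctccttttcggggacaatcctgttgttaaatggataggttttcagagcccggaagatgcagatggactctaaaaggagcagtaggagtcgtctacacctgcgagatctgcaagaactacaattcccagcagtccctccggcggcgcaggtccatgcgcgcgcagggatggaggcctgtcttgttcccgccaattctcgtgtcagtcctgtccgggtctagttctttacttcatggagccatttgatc
Tk1: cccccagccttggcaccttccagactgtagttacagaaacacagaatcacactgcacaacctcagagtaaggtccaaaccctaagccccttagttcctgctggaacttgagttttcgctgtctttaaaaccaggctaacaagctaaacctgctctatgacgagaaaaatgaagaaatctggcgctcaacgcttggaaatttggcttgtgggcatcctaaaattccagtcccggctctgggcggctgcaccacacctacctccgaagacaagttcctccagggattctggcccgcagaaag

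Most replication genes were open at an end in every list. A gene-end peak was found at 40 of the 45 genes (88.9%; exact Clopper-Pearson 95% interval 75.9% to 96.3%) in each of the 5 lists, where the share over all protein-coding genes was 57.8%, 57.7%, 57.4%, 54.4% and 51.1%. The 40 genes were not the same in each list: 38 of the 45 (84.4%) had one in all 5 lists, against 44.2% of all genes. Pola2 and Lig1 had one in 3 lists, Prim1 in 4, and Orc1, Rfc1, Tk1 and Dnmt1 in none. Intervals cover counting error only. A longer list holds more weak peaks, so each list was also reduced to its 39644 peaks with the highest −log10 p, the length of the Tumor list. At that length 40, 39, 38, 37 and 40 of the 45 genes kept a gene-end peak, where the shares over all genes were 53.2%, 51.1%, 48%, 45.9% and 51.1%. The members without one at equal length, besides the 4 genes in no list, were Pola2, Prim1, Lig1, Fen1 and Tyms.

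Several of the missing peaks lay at transcript starts inside the annotated gene. Within 1000 bp of a RefSeq transcript start, 36, 35, 36, 35 and 36 of the 37 genes with a known start had a peak, where the shares over 17491 genes were 59.4%, 59.6%, 58%, 55.3% and 52.8%. Of the 37, 34 (91.9%) had a start peak in all 5 lists, against 46.6% of all genes with a known start. At equal length 32 of the 37 (86.5%) did, against 41.0%. Orc1, Rfc1, Dnmt1 and Lig1 were among the 34. The genes that lacked a start peak in some list were Tk1, with one in 1 list, Pola2, with one in 3, and Prim1, with one in 4.

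How strong a peak was is given by its rank, the percent of peaks in the same list with a lower fold enrichment. The fold enrichments are the authors' own and were used within a list alone. Ranks are as deposited unless stated, and since the lists differ in length, a gene's ranks in different lists show no change by themselves. The best gene-end peak of a replication gene, that with the highest fold, had a median rank of 86.1, 88.7, 91.8, 89.3 and 78.4, against 74.9, 77.9, 78.7, 77.5 and 72.4 over all genes with such a peak. At equal length the medians were 80.0, 83.4, 85.4, 81.9 and 78.4, against 67.6, 72.1, 69.8, 69.6 and 72.4. A rank of 75 or more was reached by 29, 31, 33, 30 and 24 of the 40 genes, or 72.5%, 77.5%, 82.5%, 75% and 60.0%, where the shares over all genes were 49.6%, 54.2%, 55.4%, 53.7% and 46.2%. High ranks were not particular to these genes. As deposited, the median rank was 87.4, 89.0, 91.8, 91.0 and 77.9 for 28 genes of G2 and mitosis. For those of 52 other replication and S-phase genes with such a peak it was 85.4, 88.7, 87.5, 85.8 and 84.3. For 20 housekeeping genes it was lower in each list, at 80.8, 77.9, 80.8, 82.2 and 75.3. The peaks of the replication genes described here were high in rank but not wide. Their median widths of 810, 663, 947, 781.5 and 875.5 bp stood beside 825, 732, 984, 833 and 905 bp over all genes.

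**Figure D1:**
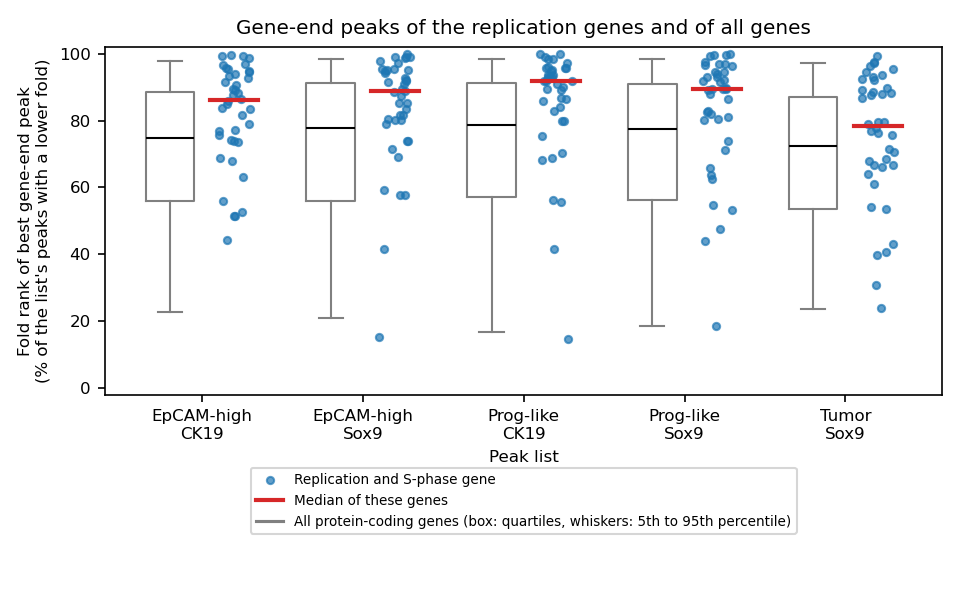
Fold enrichment rank (vertical axis, percent of the peaks of the same list with a lower fold) of the best gene-end peak in each of the 5 lists (horizontal axis). Blue points are the replication genes with a peak, the red line is their median, and boxes show quartiles and whiskers the 5th to 95th percentile of all protein-coding genes with such a peak. The red lines run from 78.4 in the Tumor list to 91.8 in the Prog-like CK19 list, each above the median of all genes.

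Among the 16 genes of origin licensing and the helicase, 15 had a gene-end peak in each list, with a median rank of 93.2, 91.8, 93.0, 86.5 and 79.6. Gins4, Gins3 and Gins2 encode subunits of the GINS complex, which activates the helicase. The Gins4 peak had folds of 18.58, 20.3, 21.68, 24.07 and 11.53 and ranks of 99.3, 98.7, 99.8, 99.6 and 97.1, and the Gins3 peak ranked at 93.2, 94.9, 98.5, 96.3 and 93.5. Gins1, the other subunit, had ranks of 52.8, 80.1, 79.9, 63.6 and 68.6, and 32.2, 70.1, 63.8, 37.8 and 68.6 at equal length, below those of Gins3 in every list at both lengths. Orc6, a subunit of the origin recognition complex, ranked between 89.5 (Prog-like Sox9) and 97.5 (Tumor).

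The 6 subunits of the Mcm2 to Mcm7 ring, which act in 1 complex, did not share 1 rank. Mcm3 ranked at 98.7, 99.0, 92.5, 86.5 and 95.4, with folds of 17.59, 20.87, 15.22, 15.16 and 10.8. Mcm4 ranked at 96.6, 97.1, 95.6, 92.1 and 87.8, and its peak also lay at an end of Prkdc. Mcm5 ranked between 79.6 (Tumor) and 95.1 (EpCAM-high Sox9), and Mcm6 between 79.5 (Tumor) and 97.2 (Prog-like CK19). Mcm2 and Mcm7 were lower. Mcm2 ranked at 51.4, 57.7, 55.5, 47.5 and 60.9, with folds of 6.29, 8.01, 7.58, 7.65 and 6.38, near the middle of each list as deposited. At equal length the Mcm2 ranks were 30.1, 36.5, 20.7, 16 and 60.9, so the peak stood low in the Prog-like lists and highest in Tumor. Mcm7 ranked at 67.9, 80.1, 68.1, 62.6 and 54.0, and its peak, shared with the end of Ap4m1, was among the widest at 1203, 1333, 1351, 1308 and 1111 bp. At equal length Mcm7 ranked at 53.9, 70.2, 42.7, 36 and 54. The Mcm2 peak was among the narrowest, at 395 bp (Tumor) to 533 bp (Prog-like CK19).

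Mcm10, which helps activate the helicase, ranked at 96.9, 98.9, 86.4, 80.1 and 92.0. Cdc6, a loader of the helicase, ranked highest in the Prog-like CK19 list at 98.9 and had ranks of 74.2, 81.8, 82.6 and 75.6 in the other lists. Its peak was narrow, at 371 bp (Prog-like Sox9) to 695 bp (Tumor). Cdt1, the partner of Cdc6 in loading, ranked highest in EpCAM-high CK19 at 90.6, and at 59.3, 68.8, 65.8 and 78.9 in the other lists. At equal length the Cdt1 ranks were 86.5, 39, 43.9, 41.4 and 78.9. Cdc45 ranked at 75.7, 88.9, 93.1, 82.1 and 66.8, and its peak of 1106 to 1414 bp was shared with Ufd1. Orc1, which encodes the largest subunit of the origin recognition complex, had no gene-end peak. Its annotated gene spans chr4:108575705-108616030, and the transcript start of the window printed above lies at 108579454, inside it. The peak there ranked at 88.8, 81.9, 98.8, 96.4 and 87.1, within the range of the other licensing genes in each list.

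**Figure D2:**
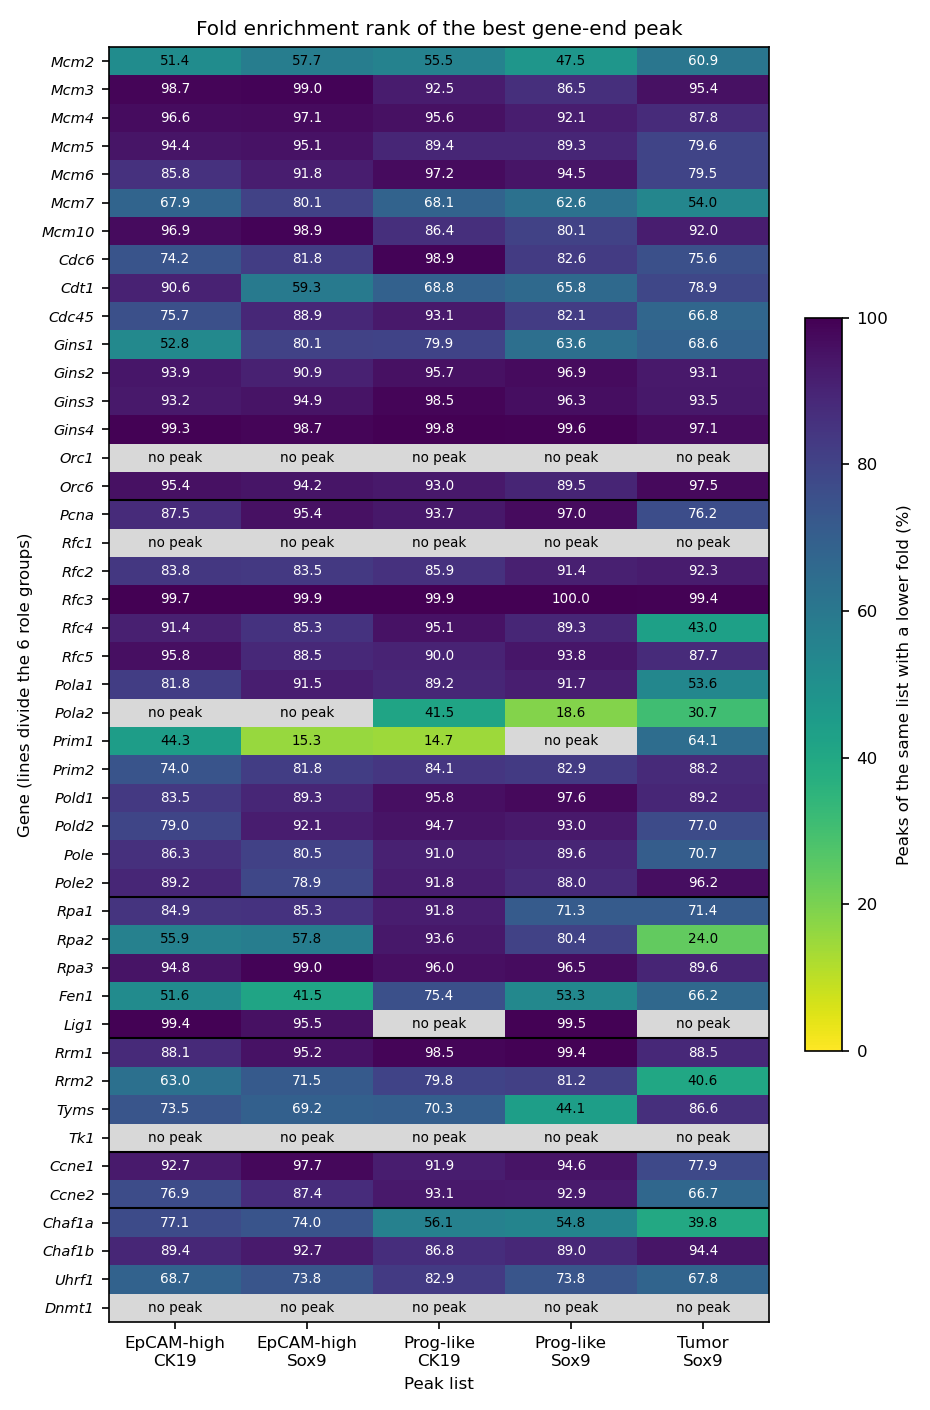
Fold enrichment rank of the best gene-end peak for each of the 45 genes (rows, with lines between the 6 role groups) in each list (columns), where the colour scale runs from 0 to 100% and grey cells hold no gene-end peak. Rfc3 and Gins4 are above 97 in every list, Mcm2 is between 47.5 and 60.9 at these deposited lengths, and Orc1, Rfc1, Tk1 and Dnmt1 are grey throughout.

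Of the 14 genes of the clamp, the clamp loader and the polymerases, 12, 12, 13, 12 and 13 had a gene-end peak, with a median rank of 85.0, 86.9, 91.0, 91.5 and 77. Rfc3, a subunit of the clamp loader, had the highest mean rank of the 45 genes. Its peak had folds of 20.26, 24.64, 23.31, 28.43 and 13.52 and ranks of 99.7, 99.9, 99.9, 100 and 99.4, so fewer than 1% of the peaks of each list exceeded it. The summit lay at −49 bp from the transcript start in all 5 lists, where negative positions are upstream and 0 is the start base. The matches to the E2F motif in the window printed above begin at −10 and 0. The other clamp loader genes were lower and varied more. Rfc4 ranked at 91.4, 85.3, 95.1, 89.3 and 43.0, lowest in the Tumor list, and Rfc5 between 87.7 (Tumor) and 95.8 (EpCAM-high CK19). Rfc2 ranked at 83.8, 83.5, 85.9, 91.4 and 92.3 with a narrow peak of 249 bp (Tumor) to 406 bp (Prog-like CK19). Rfc1, the large subunit, had no gene-end peak, but its start at 65335639 on chromosome 5 lies inside the annotated gene and carried a peak in every list. That peak ranked at 65.5, 60.2, 85.5, 86.6 and 4.9, so in the Tumor list it was among the weakest peaks.

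Pcna, the sliding clamp, ranked at 87.5, 95.4, 93.7, 97.0 and 76.2, with folds of 12.12, 17.1, 15.74, 20.09 and 7.78. It had 3 locus peaks in every list, and its gene-end peak also lay at an end of Cds2. Apart from Pola2 and Prim1, the polymerase and primase genes had such a peak in each of the 5 lists. Pola1 ranked between 53.6 (Tumor) and 91.7 (Prog-like Sox9), Pold1 between 83.5 (EpCAM-high CK19) and 97.6 (Prog-like Sox9), and Pole between 70.7 (Tumor) and 91.0 (Prog-like CK19). Pold2 ranked at 77 (Tumor) to 94.7 (Prog-like CK19), Pole2 at 78.9 (EpCAM-high Sox9) to 96.2 (Tumor), and Prim2, the large primase subunit, at 74.0 (EpCAM-high CK19) to 88.2 (Tumor). The peak of Pole was among the widest, at 857 bp (Prog-like Sox9) to 1904 bp (Tumor), and was shared with Pxmp2.

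Pola2 and Prim1 encode the accessory subunit of polymerase alpha and the catalytic subunit of its primase. In each list their gene-end peaks ranked below the median of the replication genes or were absent. Pola2 had no gene-end peak in either EpCAM-high list and ranks of 41.5, 18.6 and 30.7 in the other lists, with folds of 6.05, 4.68 and 4.5. Prim1 had ranks of 44.3, 15.3, 14.7 and 64.1 in the lists other than Prog-like Sox9, with folds of 5.61, 4.42, 3.7 and 6.75, and no gene-end peak in that list. At equal length Pola2 kept its peak in the Tumor list alone, and Prim1 kept its peak in EpCAM-high CK19, at rank 20, and in Tumor. The deposited −log10 q of these peaks was 16.43, 6.04 and 4.3 at Pola2 and 10, 4.06, 5.83 and 9.76 at Prim1. A peak below the threshold of its list is not in the list, so a missing peak does not show that a start was closed.

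Of the 5 genes of single-strand binding and lagging-strand processing, 5, 5, 4, 5 and 4 had a gene-end peak. Rpa1, Rpa2 and Rpa3 encode the subunits of the complex that coats single-stranded DNA. Rpa3 ranked at 94.8, 99.0, 96.0, 96.5 and 89.6, and its peak also lay at an end of Umad1. Rpa2 ranked at 55.9, 57.8, 93.6, 80.4 and 24.0, with folds of 6.83, 8.03, 15.71, 13.45 and 4.12. At equal length the Rpa2 ranks were 36.7, 36.7, 88.5, 66.5 and 24, so the peak stood highest in the Prog-like lists and lowest in the Tumor list at both lengths, while Rpa1 ranked between 71.3 (Prog-like Sox9) and 91.8 (Prog-like CK19). Fen1, the flap nuclease that trims Okazaki fragments, ranked at 51.6, 41.5, 75.4, 53.3 and 66.2. At equal length it ranked at 30.5, 12.3 and 55.8 in both EpCAM-high lists and Prog-like CK19, was absent in Prog-like Sox9 and ranked highest in Tumor.

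Lig1, the ligase that joins Okazaki fragments, shows how a window decides presence. By the gene-end search it was absent in Prog-like CK19 and Tumor and ranked at 99.4, 95.5 and 99.5 in the others, both EpCAM-high lists and Prog-like Sox9. The same peak was present in all 5 lists. Its near edge lay 901, 846, 1001, 978 and 1114 bp from the end of the annotated gene at 13277175 on chromosome 7, so 2 lists missed the limit of 1000 bp. At the transcript starts inside the gene, where the window printed above lies, the peak ranked at 99.4, 95.5, 99.5, 99.5 and 99.4.

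Of the 4 genes of nucleotide supply, 3 had a gene-end peak in each list. Rrm1, the large subunit of ribonucleotide reductase, ranked at 88.1, 95.2, 98.5, 99.4 and 88.5, and its small subunit Rrm2 at 63.0, 71.5, 79.8, 81.2 and 40.6. Both genes stood higher in each Prog-like list than in each other list, also at equal length, where the ranks were 82.9, 92.9, 97.2, 99 and 88.5 for Rrm1 and 46.8, 57.3, 63.6, 67.8 and 40.6 for Rrm2. Tyms, thymidylate synthase, had a start peak of rank 73.5, 69.2, 43.2, 44.1 and 86.6, lowest in the Prog-like lists, where it was absent at equal length. In the Prog-like CK19 list a peak at the far end of Tyms ranked above that of its start, at 70.3. Tk1, thymidine kinase, had a peak within 1000 bp of its start in EpCAM-high CK19 alone, with a rank of 16.5. That peak lay inside the gene at chr11:117824362-117825078, and its neighbours in the other EpCAM-high and both Prog-like lists lay 1202 to 1276 bp from the gene end, or 1129 to 1203 bp from the start, against 936 bp in EpCAM-high CK19, so the limit of 1000 bp from the start falls between them. From the gene end the EpCAM-high CK19 peak lay 1009 bp away, past the limit as well. In the Tumor list the nearest peak to a gene end of Tk1 was 4655 bp away. No list had a peak that covered the Tk1 start.

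Both genes of cyclin E, the cyclin that drives entry into S phase with Cdk2, were open in every list. Ccne1 ranked at 92.7, 97.7, 91.9, 94.6 and 77.9 and Ccne2 at 76.9, 87.4, 93.1, 92.9 and 66.7. The Ccne2 peak was among the widest, at 1261 bp (Prog-like Sox9) to 1403 bp (EpCAM-high CK19). Each gene had 1 locus peak in every list.

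The 4 genes that copy chromatin behind the fork were mixed. Chaf1b, a subunit of chromatin assembly factor 1, ranked at 89.4, 92.7, 86.8, 89.0 and 94.4, while its partner subunit Chaf1a ranked at 77.1, 74.0, 56.1, 54.8 and 39.8. At equal length the Chaf1a ranks were 67.1, 60.9, 21.7, 23.3 and 39.8, so the EpCAM-high lists stayed highest while the order of the Prog-like and Tumor lists turned. Its peak was narrow at 339 to 665 bp. Uhrf1, which recruits the maintenance methyltransferase to newly copied DNA, ranked at 68.7, 73.8, 82.9, 73.8 and 67.8 with one of the widest peaks, 751 bp (Prog-like Sox9) to 1662 bp (EpCAM-high CK19). Dnmt1, that methyltransferase, had no gene-end peak. Its start peak, inside the annotated gene near 20952623 on chromosome 9, ranked at 89.4, 83.7, 96.2, 94.3 and 54.0.

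Set against each other in pairs, the lists differed at few of these genes. Of the 45 genes, Prog-like CK19 and EpCAM-high CK19 differed at 2, Pola2 in the first alone and Lig1 in the second alone, beside 6.5% and 6.95% of all genes. Prog-like Sox9 and EpCAM-high Sox9 differed at Pola2 in the first and Prim1 in the second, beside 5.68% and 8.98%. The EpCAM-high lists differed at no member, beside 2.99% and 2.87% of all genes, and the Prog-like lists at Prim1 in CK19 and Lig1 in Sox9, beside 3.68% and 0.704%. Tumor differed from EpCAM-high Sox9 at Pola2 in Tumor and Lig1 in EpCAM-high Sox9, beside 2.57% and 9.17%, and from Prog-like Sox9 at Prim1 in Tumor and Lig1 in Prog-like Sox9, beside 5.4% and 8.69%. Equal list length changed several of these differences. No member then had a gene-end peak in Prog-like and not in EpCAM-high, beside 4.94% of all genes in CK19 and 4.95% in Sox9. EpCAM-high alone held Prim1 and Lig1 in CK19 and Fen1 and Tyms in Sox9, beside 10.1% and 10.2%. At that length the EpCAM-high lists differed at Prim1, in CK19, beside 4.08% of all genes. The Prog-like lists differed at Fen1 and Tyms in CK19 and Lig1 in Sox9, beside 2.9% and 0.722%. Tumor differed from EpCAM-high Sox9 at Pola2 and Prim1 in Tumor and Lig1 in EpCAM-high Sox9, beside 5.79% and 5.77%. At equal length Tumor and Prog-like Sox9 differed at 5 genes, with Pola2, Prim1, Fen1 and Tyms in Tumor alone and Lig1 in Prog-like Sox9 alone, beside 10.1% and 4.85% of all genes. Each of these Lig1 differences is the window effect described above.

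Ranks of start peaks present in both lists of a pair were compared at equal length. The start peak ranked higher in Prog-like CK19 than in EpCAM-high CK19 at 22 of 33 members (66.7%), where the share over all genes was 49%, with a median difference of 6.59 percentage points over the members and −0.28 over all genes. In the Sox9 set it ranked higher in Prog-like than in EpCAM-high at 16 of 32 (50%), beside 40.5% of all genes. EpCAM-high CK19 exceeded EpCAM-high Sox9 at 13 of 34 (38.2%), beside 40.9%, and Prog-like CK19 exceeded Prog-like Sox9 at 18 of 32 (56.2%), beside 51.6%. The Tumor rank was the higher at 14 of 34 members (41.2%) against EpCAM-high Sox9, beside 50.5% of all genes, and at 13 of 32 (40.6%) against Prog-like Sox9, beside 58.7%. The median difference of Tumor from EpCAM-high Sox9 was −5.33 points over the members and 0.13 over all genes, and from Prog-like Sox9 −1.96 and 3.56. The pairs share lists, so these shares are not independent of each other. No replicate gives the error of a rank, so whether any of these shares differs from that of all genes beyond the spread between libraries was not tested.

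Away from the starts the loci differed more between lists. The median number of locus peaks was 2, 2, 3, 3 and 2 for the replication genes and 2, 2, 2, 2 and 1 for all protein-coding genes, and at equal length it was 1, 1, 2, 2 and 2 against 1 in every list. Over the 45 loci the locus peaks summed to 81, 95, 142, 143 and 90, and to 76, 79, 99, 96 and 90 at equal length. The sums over all protein-coding genes were 47216, 52370, 66282, 62245 and 36592, and 37156, 36874, 38995, 38094 and 36592 at equal length, so they too were highest in the Prog-like lists. Gins1 and Tk1 had the most in a single list, with 4, 4, 6, 7 and 4 and 2, 4, 6, 7 and 1. At equal length Gins1 had 4, 4, 5, 5 and 4, and Tk1 had 1, 2, 2, 0 and 1, so the Prog-like excess at Tk1 was lost. Mcm5 had 1, 2, 6, 6 and 1 and Gins2 had 1, 1, 4, 5 and 1, so as deposited both loci held more peaks in the Prog-like lists than elsewhere. At equal length Gins2 kept this order, with 1, 1, 4, 4 and 1, whereas Mcm5 had 1, 1, 1, 3 and 1 and exceeded the other lists in Prog-like Sox9 alone. Rfc1 had 1, 2, 6, 5 and 3, Pola2 2, 0, 6, 4 and 3, and Pole2 2, 2, 5, 5 and 4. At equal length Rfc1 had 1, 2, 5, 5 and 3 and Pole2 2, 2, 4, 3 and 4, while Pola2 had 1, 0, 1, 0 and 3, most in the Tumor list. Lig1 had 3, 4, 4, 4 and 4 and Mcm7 3, 3, 4, 4 and 4, nearly level across lists as deposited. Mcm10 departed from this order, with 1, 1, 2, 2 and 4 peaks, most in the Tumor list. Mcm4, Cdc45, Gins4, Orc6, Rfc3, Rpa3, Ccne1 and Ccne2 had 1 locus peak in every list.

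**Figure D3:**
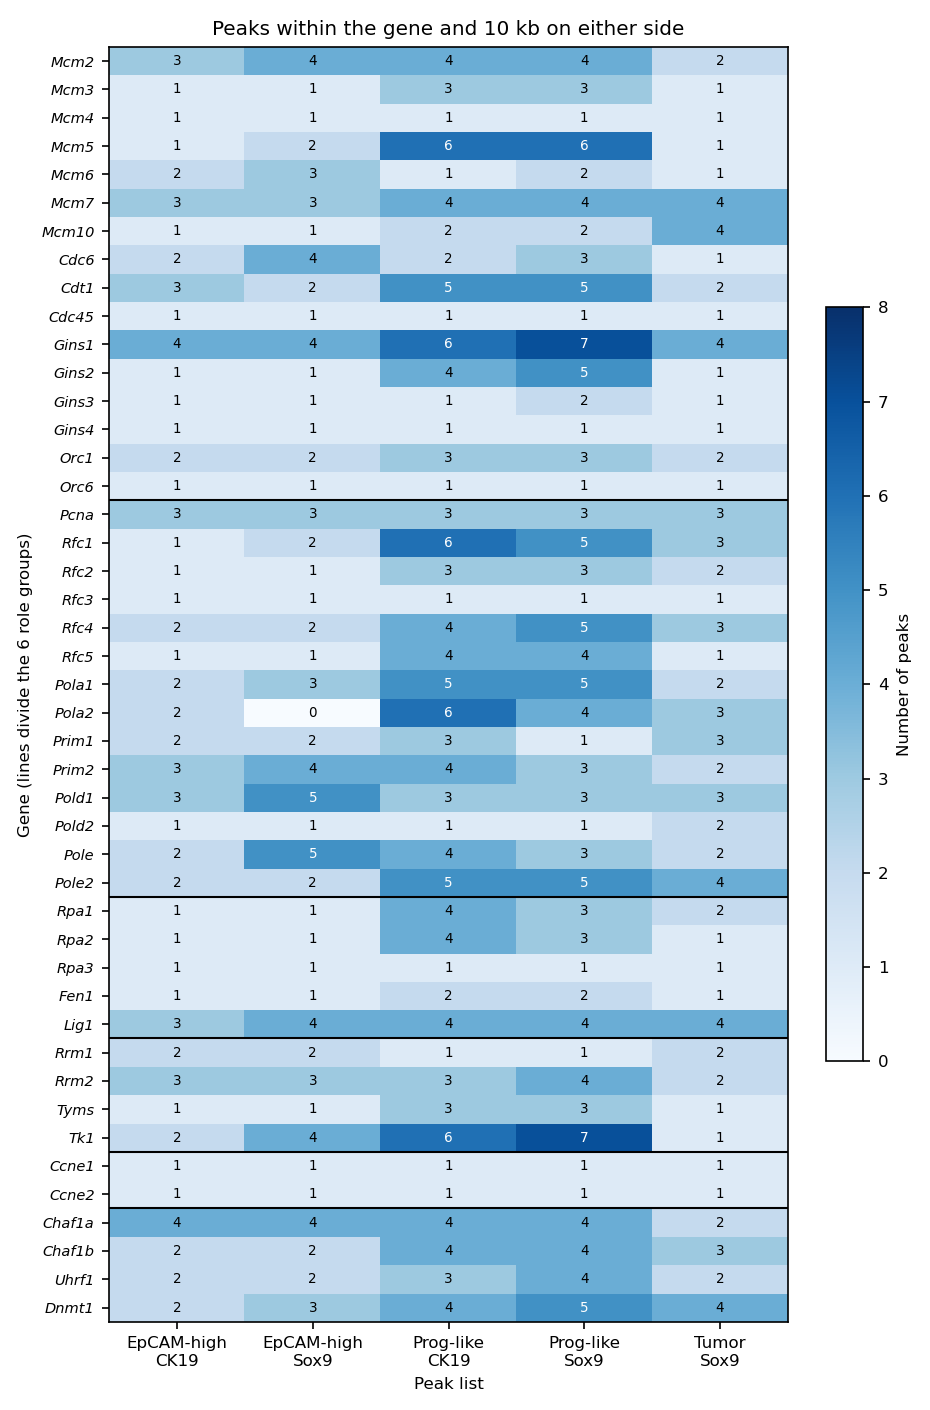
Number of peaks that overlap each of the 45 genes or 10 kb on either side (rows, with lines between the 6 role groups) in each list (columns), on a colour scale from 0 to 8 peaks. Mcm5, Rfc1, Gins2 and Tk1 are darkest in both Prog-like columns at the deposited lengths shown (at equal length Rfc1 and Gins2 alone of these 4), whereas Rfc3, Gins4 and Ccne1 show 1 peak in every column.

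Peaks of all lists that overlapped by at least 1 base were merged into regions, at the deposited list lengths, 190 of which lay in the 45 loci. Of the 53 regions at an end or transcript start of a member, 42 (79.2%) held a peak of all 5 lists, against 51.6% of the gene-end regions of all genes. Of the 110 regions at no gene end, 63 (57.3%) held peaks of the Prog-like lists alone, against 44.5% of such regions in all gene loci. EpCAM-high lists alone accounted for 13 (11.8%, against 26.6%), and the Tumor list alone for 11 (10%, against 7.23%). Peaks of all 5 lists were found at 4 of the 110 (3.64%, against 4.79%). Regions of all genes were sorted by gene ends alone, whereas transcript starts also counted for the members. The classes set side by side are therefore not fully alike. The remaining 27 regions lay at an end of another protein-coding gene, and 14 of them (51.9%) held peaks of all 5 lists. The lists in which these Prog-like regions appear are also those in which all 8 macrophage markers had a gene-end peak, while the other lists had one at 0, 1 and 0 of the 8, and the part of those cells in the locus peaks was not tested. Regions near a replication gene may belong to a neighbour. The Prog-like region at chr8:75100622-75102427, upstream of Mcm5, lies at an end of Hmox1, which encodes heme oxygenase, and a pair of the Gins2 regions lie in the body of Gse1.

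**Figure D4:**
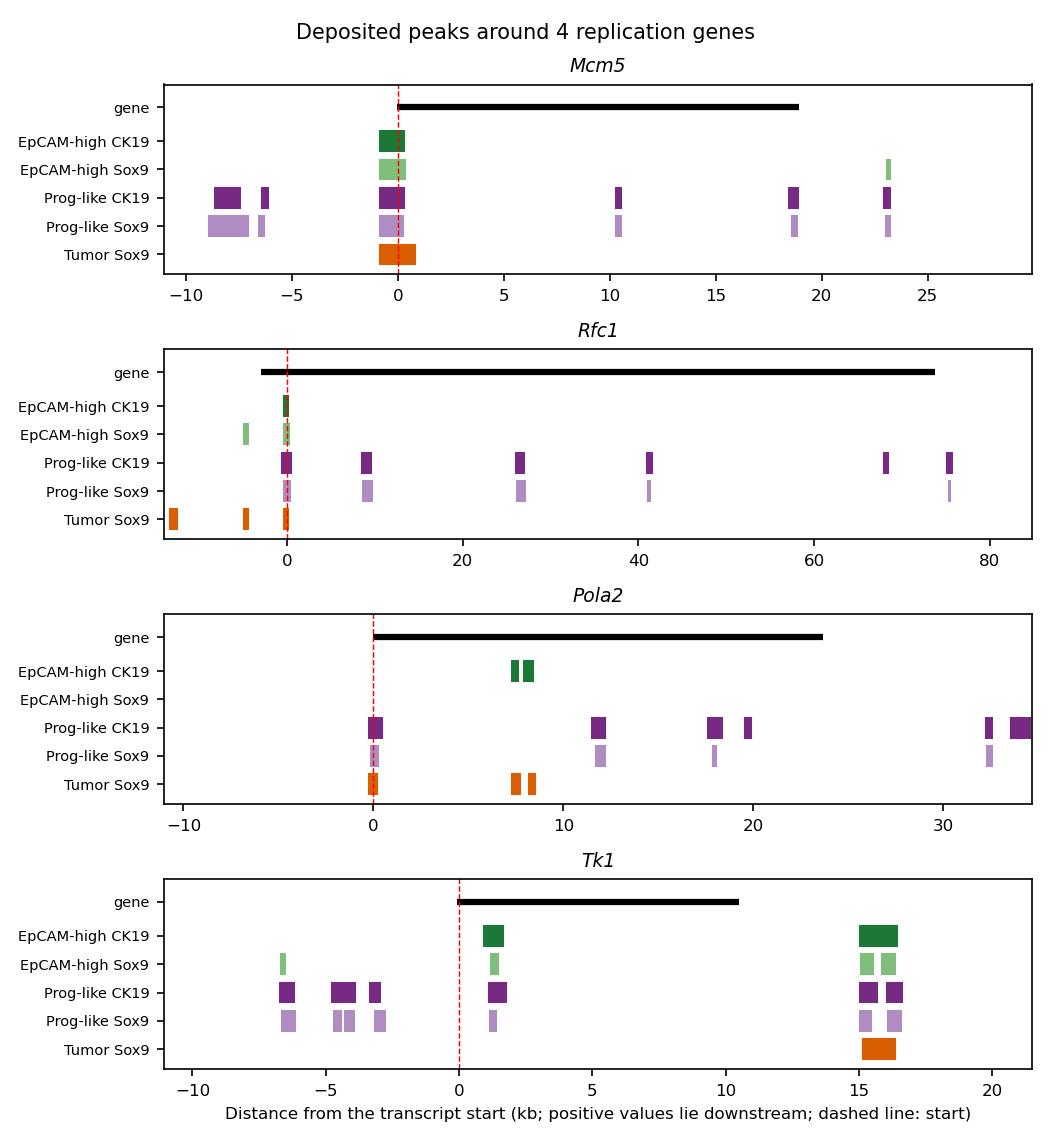
Peaks of the 5 lists (rows, coloured bars to scale) around Mcm5, Rfc1, Pola2 and Tk1, with the annotated gene as a black bar. The horizontal axis is the distance from the RefSeq transcript start in kb, positive downstream, and the dashed line marks the start. Mcm5 and Rfc1 have a peak at the start in all 5 lists and several further peaks in the Prog-like rows at the deposited lengths shown, Pola2 has none at the start in the EpCAM-high rows, and no bar covers the Tk1 start.

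At the starts the peaks lay at nearly the same place in each list. For the 34 members with a start peak in all 5 lists, the peaks of all 5 overlapped at all 34, against 94.8% of 8159 genes with such peaks, and the stretch common to all 5 had a median length of 606.5 bp, against 681 bp. The median distance between the outermost summits of the 5 lists was 99.5 bp, against 140 bp. The median position of the summit was −60.5 bp from the start, just upstream of transcription, against −36 bp over all genes. The distance between summits was 0 bp at Rfc3, 2 bp at Rrm1, 3 bp at Mcm5 and Chaf1a and 14 bp at Mcm2. At Pcna it was 530 bp, with the summit at −89, −72, −72, −67 and 441 bp, so the Tumor summit stood apart. A start of another gene on the opposite strand lay within 1000 bp at 8 of the 37 members (21.6%), against 9.61% of all genes with a known start, and a peak there cannot be given to 1 of the 2 genes. These were Mcm7 with Ap4m1, Cdc45 with Ufd1, Orc1 with Prpf38a, Rpa1 with Smyd4, Rpa3 with Umad1, Fen1 with Tmem258, Lig1 with Zswim9 and Tk1 with Afmid, at distances of 50 bp (Rpa1) to 322 bp (Cdc45). The gene-end peaks of Orc6, Pole2 and Pold1 also lay at an end of a neighbour, Vps35, Klhdc1 and Nr1h2.

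A minority of the genes with a promoter window held the E2F motif there, a larger share than over all genes. A match was found in a window of 15 of 37 genes (40.5%, exact interval 24.8% to 57.9%), against 575 of 17491 genes (3.29%), where a gene with several transcript starts has a window for each. Among genes with a start peak in all 5 lists, 15 of 34 members (44.1%) and 441 of 8159 genes (5.41%) held one. By role, 8 of 12 licensing and helicase genes held a match (Mcm3, Mcm5, Mcm6, Mcm7, Cdc6, Cdt1, Gins3 and Orc1), as did 4 of 11 clamp and polymerase genes (Rfc3, Pola1, Pold1 and Pole2). Lig1 was the 1 of 5 single-strand and lagging-strand genes, Uhrf1 and Dnmt1 were 2 of 4 chromatin genes, and none of the 4 nucleotide supply genes nor Ccne1 held one. Matches began between −219 (Dnmt1) and 39 (Pold1) from the start base. Mcm3 held its matches at 19 and 38, and Mcm6 held 3 matches, of which those at −110 and −106 overlap, as do those of Mcm5 at −153 and −149. All 15 genes with a match had a start peak in all 5 lists, and Tk1, Pola2 and Prim1, which did not, were among the 22 without a match. Of those 22, 95.5%, 90.9%, 95.5%, 90.9% and 95.5% had a start peak in the 5 lists. Over all genes the shares were 86.4%, 86.4%, 86.1%, 83.7% and 80.9% with a match. Without a match they were 58.5%, 58.7%, 57.0%, 54.3% and 51.9%. No match says only that these letters are not in the window. The median rank of the start peak was 89.2, 89.3, 95.8, 91.7 and 79.6 in members with a match and 79.0, 86.9, 90.0, 84.3 and 71.4 in members without. Over all genes with a start peak the corresponding medians were 76.3, 79.9, 83.6, 81.5 and 72.9 with a match and 75.8, 78.6, 79.2, 78.1 and 73.0 without.

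**Figure D5:**
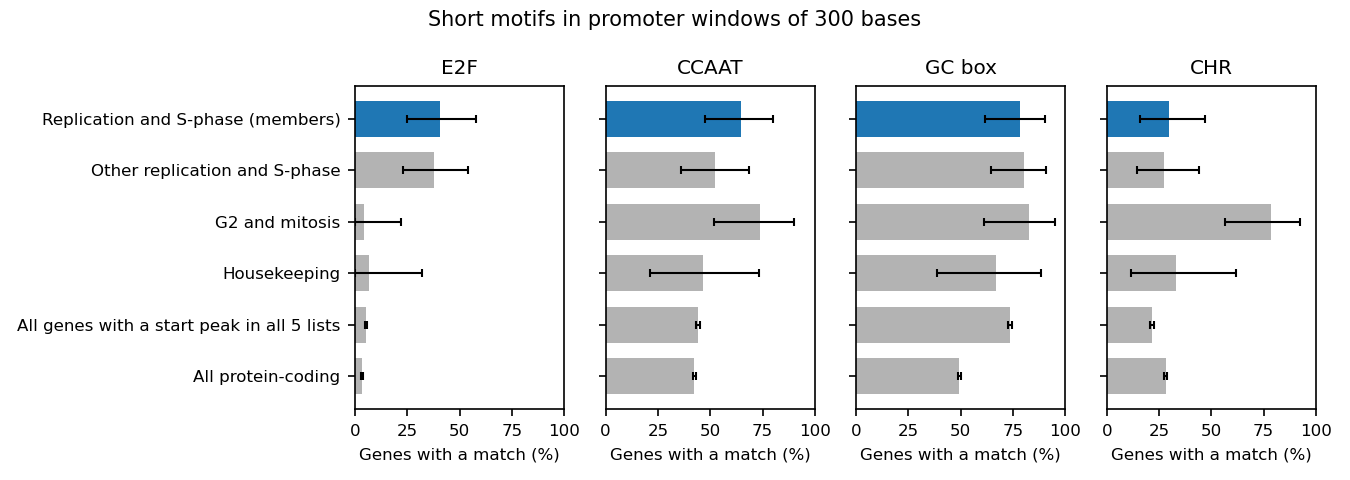
Share of genes (horizontal axis, percent) whose promoter window of 300 bases holds a match to each of 4 motifs (panels), for the replication genes in blue and for comparison lists, all genes and genes with a start peak in all 5 lists in grey, with exact 95% intervals as error bars. E2F matches are at 40.5% in the replication genes and 3.29% in all genes, while the CHR panel is highest for the G2 and mitosis genes.

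Other motifs were searched on both strands in the same windows. The CCAAT box (CCAAT) was present in 24 of 37 members (64.9%), against 42.3% of all genes, and the GC box (GGGCGG) in 29 (78.4%), against 49.2%. Among genes with a start peak in all 5 lists the GC box share was 73.3%, near that of the members. The cell cycle homology region, or CHR (TTTGAA or TTTAAA), was present in 11 (29.7%), against 28.2%. The median GC content of the windows was 63.0% and the median number of CpG dinucleotides 25, against 62.7% and 24 in genes with a start peak in all 5 lists. Of 52 other replication and S-phase genes, a list that holds none of the 45, 51, 51, 51, 50 and 50 had a gene-end peak, and 15 of the 40 with a window (37.5%) held an E2F match. In that list Orc4 lacked a gene-end peak throughout, and E2f2 had one in Tumor and not in Prog-like Sox9 and Recql4 the reverse, at both lengths. Each of 28 genes of G2 and mitosis had a gene-end peak in each list. Of the 23 with a window, 1 (4.35%) held an E2F match and 18 (78.3%) a CHR match.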

How the data were processed

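The 5 peak lists are in the narrowPeak layout. The authors' fold enrichment per peak is a linear ratio to background, their deposited significance columns are −log10 p and −log10 q, and a summit position is given. The authors' tools were Bowtie 1.1.2, MACS2, HOMER and deepTools with build mm10, per the submitters' processing notes, which give no role or order. Pooling of samples, duplicate removal and read depth are not stated there. The lowest deposited −log10 q was 1.30 to 1.32.

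Peaks were assigned with Python 3.11.15, pandas 2.3.3, numpy 2.4.6 and scipy 1.17.1 to RefSeq genes of GRCm38.p6. The annotation gives gene ends without strand, and starts come from the RefSeq promoter table (37 of the 45 genes, 17491 of 21883). Counting was tested on simulated peaks. The 45 genes and all lists were chosen with earlier results of these data known. Genes were named by a rule: those lacking a gene-end peak in any list, among those with one in all 5 lists the 5 highest and 5 lowest in mean rank and the 5 widest and 5 narrowest, and among all members the 5 with most locus peaks, the 6 with the largest range of these, and Pcna and Mcm2; other members are given by role. Alternatives were a 2500 bp window, lists of equal length, peaks of −log10 q 5 or more, summits in place of peaks, other flanks, transcript starts and unshared gene ends.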

Additional observations from a re-analysis of the deposited data

How the results depend on the processing

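The number of members with a gene-end peak, 40 in each list, moved by less than 1.5 times under every alternative run, as did the median width. The share of all protein-coding genes with a gene-end peak moved with the setting. It was 53.2%, 51.1%, 48.0% and 45.9% in the EpCAM-high and Prog-like lists at equal length, 55.0%, 54.4%, 55.8%, 53.0% and 47.6% at a −log10 q of 5 or more, 63.2%, 63.3%, 62.9%, 59.9% and 56.0% with a window of 2500 bp, and 55.7%, 56.1%, 54.7%, 52.6% and 49.2% by summit. The median number of locus peaks of the members became 4, 5, 8, 7 and 4 with flanks of 50 kb, and 1 in all 5 lists in the gene body alone. Equal medians do not show that the lists are alike there. Regions of the Prog-like lists alone lie inside Rfc1, and regions of the EpCAM-high lists alone inside Prim2. At equal length with flanks of 10 kb the median became 1, 1, 2, 2 and 2. The median rank in the Prog-like lists became 85.4 and 81.9 at equal length, where the weakest peaks are gone from the scale. Members that differed between Tumor and Prog-like Sox9 numbered 5 at equal length and 4 at a −log10 q of 5 or more, in place of 2. For the EpCAM-high lists the number was 1 at equal length, at the higher −log10 q and with the wider window, in place of 0. It was 1 in place of 2 for the Prog-like lists with the wider window and by summit, for the CK19 pair of Prog-like and EpCAM-high by summit, and for the Sox9 pair at the higher −log10 q. Transcript starts and leaving out peaks shared with another gene, both chosen after seeing the data, moved no value past these limits. The causes were not tested.

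No paired analysis was possible because there is 1 list per condition with no replicate number, and leaving out a replicate was not applicable. Depth is unknown, since the lists hold no read counts, and a longer list at the same threshold reaches weaker peaks.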

Other observations

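Several microRNA genes lie in these loci. The hairpins of Mir25, Mir93 and Mir106b lie inside Mcm7 on chromosome 5, on its strand, at 138165321 to 138165404, 138165523 to 138165610 and 138165737 to 138165818. Mir7053 lies inside Pold1 and Mir7081 inside Dnmt1, and Mir6993 lies in the flank of Fen1. Housekeeping genes, 20 in number, had a gene-end peak at 19, 19, 19, 19 and 18 genes in the 5 lists. Of the 3 Rb family genes deleted in the model, 3, 2, 3, 2 and 2 had a gene-end peak, which does not report whether the floxed exons are present.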
